A study of Mus musculus with 18 samples.

Results

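The genes described here mark the blood vessels and coverings of the brain: 14 endothelial genes, 7 genes of mural cells, which include the pericytes that wrap capillaries, and 13 genes of meningeal and perivascular fibroblasts. They were taken by gene symbol from the count table as endothelial, pericyte and meningeal fibroblast genes, leaving out collagens and contractile genes, and make up 34 of the 51912 genes counted. The libraries came from primary astrocyte cultures of hemizygous Aldh1l1-EGFP/Rpl10a mice (line JD130Htz, strain B6;FVB, bred with C57BL/6J), in which Aldh1l1-expressing cells tag ribosomal protein L10a with EGFP. Cortices of postnatal day 0 transgenic pups, males and females in equal number, were pooled, grown for 14 days to confluence, replated on 100 mm dishes, kept for 6 days, deprived of serum for 24 h and then held for 24 h in serum-free medium with 50 mM ethanol or none. Translating ribosome affinity purification (TRAP) pulled down the tagged ribosomes, and their RNA was sequenced from 6 control and 6 ethanol dishes (IP fraction), while RNA of the cleared lysate, set aside before the pull-down, was sequenced from replicates 4 to 6 of each treatment (input fraction, 3 control and 3 ethanol). All groups carried the transgene, and nothing in the sources used here says that the dishes came from separate cultures, so p-values speak only for these dishes. The tests borrowed their estimate of spread across genes, most strongly in input.

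Endothelial cells of brain capillaries are sealed by tight and adherens junctions, carry receptors for vascular endothelial growth factor (VEGF) and angiopoietins, and form the blood-brain barrier together with transporters in their membranes. Pericytes sit on the same capillaries and depend on signalling through platelet-derived growth factor receptor beta. Meningeal fibroblasts, which cover the cortex and line large vessels, build a matrix of proteoglycans and glycoproteins and depend on forkhead transcription factors, and they are a known passenger of astrocyte cultures started from newborn cortex. Several of these genes are also transcribed by astrocytes in culture, so a gene of these lists is not by itself a count of vascular or meningeal cells, and fewer cells of a type cannot be told apart from less RNA per cell.

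Between 74239854 and 132810705 read pairs fell on genes in each library, with a median of 84119135, and levels are given as CPM, the count of a gene relative to all pairs on genes in its library, after scaling between libraries by the trimmed mean of M values. Aldh1l1, whose promoter drives the transgene, stood at 181 ± 9.87 CPM (SD, n = 6) in input and at 375 ± 14.9 CPM (n = 12) in IP, which was higher by 1.05 ± 0.02 (SE) on the log2 scale, with an adjusted p of 5.452e-51. Rpl10a, which the transgene and the endogenous gene both supply, stood at 354 ± 11.4 CPM in input and at 245 ± 9.10 CPM in IP. Of 12 astrocyte genes, 10 were higher and 1 was lower in IP, whereas 12 of 13 microglial genes were lower and none was higher. These calls use adjusted p-values from edgeR's quasi-likelihood test, with Benjamini-Hochberg adjustment over all 24495 genes tested and a threshold of 0.05. The same test gave every adjusted p below unless DESeq2 is named, and it was refitted where another setting is named.

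Endothelial genes ranged from 0 to moderate levels in these cultures, while several genes of the mural and meningeal lists were abundant. Cldn5, Tie1, Emcn, Esam, Cdh5 and Pecam1 were at or near 0, and Slco1a4, Flt1, Eng, Vwf and Kdr were at 2.85 CPM or more in input. No read pair fell on Cldn5, the main claudin of endothelial tight junctions, among the 1559526559 pairs of the 18 libraries, which allows a level of up to 0.00192 CPM over all libraries (3 counts of the total, for counting error only). Slc22a6, an organic anion transporter of meningeal cells, also had 0 pairs, with the same limit, and the receptor gene Tie1 had 6 pairs, of which 1 was in input and 5 were in IP. These 3 genes missed the minimum of 10 pairs over all libraries, so that 31 of 34 members were tested, 12 of them endothelial, 7 mural and 12 meningeal.

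Pecam1, the adhesion molecule CD31, had between 17 and 40 pairs in each library and averaged 0.315 ± 0.0462 CPM in input (n = 6). Cdh5, which encodes vascular endothelial cadherin, ranged from 0.151 to 0.445 CPM in input and had 210 pairs in all. Endomucin (Emcn), a sialomucin of veins and capillaries, had 51 pairs in all 18 libraries together. The growth factor receptors were higher: Flt1, VEGF receptor 1, ran from 6.52 to 7.18 CPM in input, Kdr, VEGF receptor 2, from 1.97 to 3.61 CPM, and Tek, the angiopoietin receptor TIE2, from 0.408 to 0.655 CPM.

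Compared per kilobase of exon, which allows levels of different genes to be set side by side, the member with the highest level was Fn1, fibronectin, at 153.7 ± 4.41 CPM per kb in input (SD, n = 6), at the 98.9th percentile of the 24495 genes tested. Twist1, a basic helix-loop-helix transcription factor of mesenchyme, followed at 26.5 ± 1.25 CPM per kb, and Pdgfrb, the pericyte receptor, at 24.9 ± 0.360 CPM per kb. In input every Twist1 library lay above every Pdgfrb library, whereas in IP the libraries of these genes overlapped. Cdh11, a cadherin of mesenchymal cells, stood at 14.0 ± 0.0950 CPM per kb and Ptgds, the prostaglandin D synthase of leptomeninges, at 10.6 ± 0.508 CPM per kb. Slco1a4, an organic anion transporter of the blood-brain barrier, was the endothelial-list gene with the highest level, at 6.39 ± 0.342 CPM per kb and the 73.3rd percentile. The proteoglycan gene Dcn, the fibulin gene Fbln1 and the forkhead gene Foxc1 lay between 3.51 and 3.94 CPM per kb, with libraries of neighbours in this order overlapping. Vtn, Eng and Anpep lay between 1.47 and 1.92 CPM per kb, which made 12 members at 1 CPM per kb or more in input, or 14 when levels were divided by the longest transcript in place of all exons. Below that level most neighbours in the order overlapped, such as Ly6c1 and Flt1, Kdr and Des, and Egfl7 and Vwf. Kcnj8, a potassium channel subunit that is among the most selective pericyte genes, was the lowest of the 31, with 14 pairs in all.

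The members of a list did not stand at a common level. In the mural list, Pdgfrb was at 24.9 CPM per kb in input, whereas Rgs5 was at 0.412 ± 0.0488, Des at 0.307 ± 0.0553, Abcc9 at 0.0650 ± 0.00639 and Kcnj8 at 0.00449 ± 0.00750 CPM per kb. In the meningeal list, Twist1 and Foxc1 were at 26.5 and 3.51 CPM per kb, and Foxd1 was at 0.0703 ± 0.0138, Lum at 0.0361 ± 0.0227 and Dpt at 0.0240 ± 0.0195 CPM per kb. In the endothelial list, Slco1a4 at 6.39 CPM per kb stood apart from Pecam1 at 0.0506 ± 0.00742 CPM per kb. The plot of levels by library shows this spread, in which libraries of 1 fraction lie close together for all but the rarest transcripts.

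**Figure D1:**
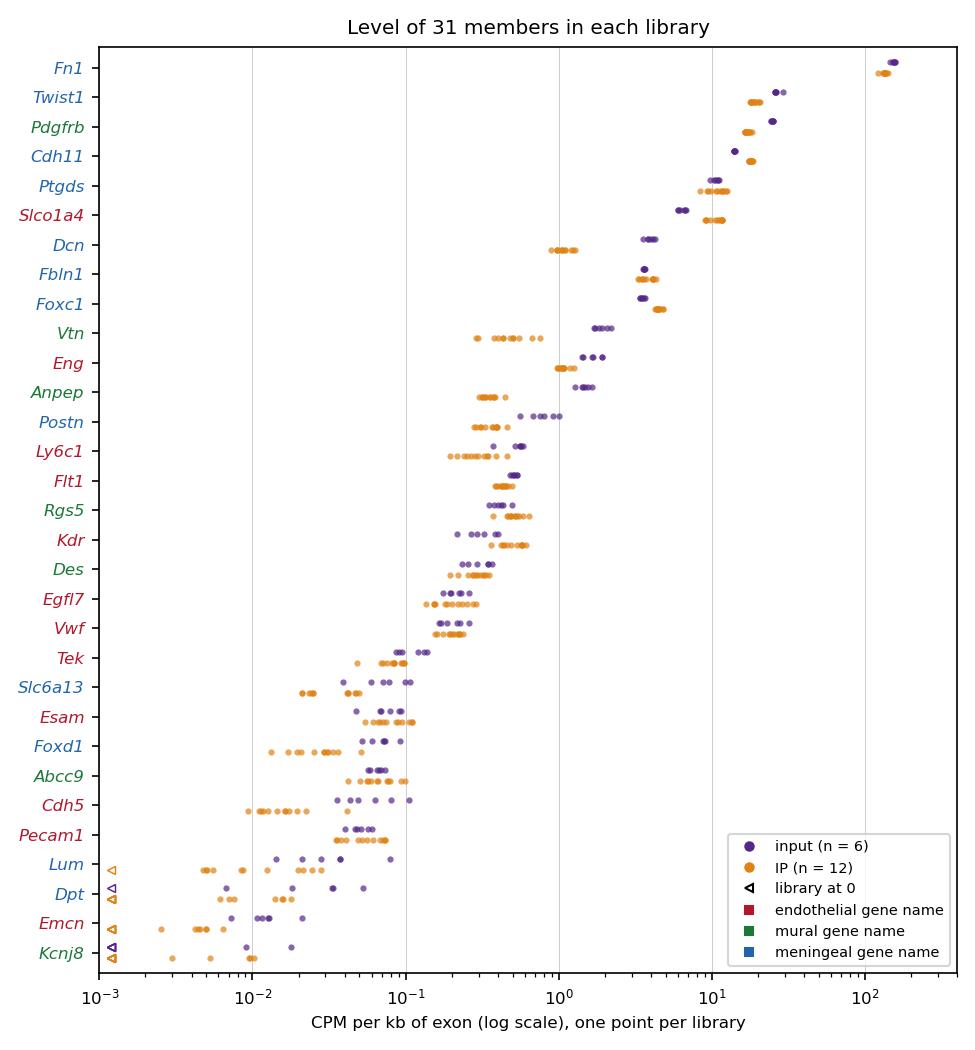
Level of each of the 31 tested members in each of the 18 libraries, in CPM per kb of exon on a log axis, with input libraries in purple and IP libraries in orange, genes ordered by their mean in input, and libraries without a read pair drawn as open triangles at the left edge. Fn1 lies above 100 CPM per kb in every library, and Kcnj8, Emcn, Dpt and Lum, at the bottom, have libraries at 0.

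Reads of some members can be shared with other genes. Ly6c1 and Slco1a4 belong to families with near-identical copies and are uncertain for that reason. Eng overlaps Fpgs on the opposite strand, Egfl7 overlaps Agpat2, Fn1 overlaps Apol7d and Abcc9 overlaps 5330439B14Rik, and the counts used did not separate strands. Counts restricted to the gene's own strand held between 96.4% and 105.6% of the unstranded counts for the tested members other than Dpt, at 67.7% of 34 pairs.

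The comparison of IP with input asked which transcripts were held by tagged ribosomes of Aldh1l1-expressing cells relative to the cleared lysate of all cells in the dish. Of the 34 members, 5 were higher in IP, 16 were lower, 10 were not called and 3 were not tested. Over all genes tested, 25.2% were higher and 25.8% were lower. The median log2 fold change (IP over input) of the 31 tested members was -0.43, beside -0.028 over all genes tested, -2.44 over the microglial list and 0.57 over the astrocyte list. By list the medians were -0.16 for endothelial genes, -0.49 for mural genes and -0.81 for meningeal genes. Among genes with a mean of 1 CPM or more, where the test could see smaller differences, 27.8% of 18 members were higher and 50% were lower, beside 42.5% and 33.8% of 13453 genes. The groups did not overlap for 13 members, 3 higher and 10 lower in IP, beside 13.1% and 11.9% of all genes.

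Of the 12 endothelial members tested, Slco1a4 and Kdr were higher in IP, 6 were lower and 4 were not called. Cdh5, one of the lower ones, had libraries at 0.0394, 0.0646 and 0.175 CPM in IP (lowest, median and highest of 12) and at 0.151, 0.236 and 0.445 CPM in input. Its groups overlapped only through IP control replicate 6, and its log2 fold change was -1.87 ± 0.30 (SE, adjusted p = 1.663e-07), on 73 pairs in IP and 137 in input. Emcn was at 0 in 5 of 12 IP libraries and at 0.0391 to 0.113 CPM in all input libraries, with a log2 fold change of -2.12 ± 0.61 (adjusted p = 0.00239), but it rested on 15 IP pairs and 36 input pairs and was not called in the 12 libraries of dishes that have both fractions, without the dish as a replicate block (adjusted p = 0.0536) or with it (adjusted p = 0.0789). Ly6c1, a surface antigen of brain endothelium, fell by 0.80 on the log2 scale (adjusted p = 2.428e-06), and Eng, the transforming growth factor beta co-receptor endoglin, by 0.64 (adjusted p = 5.095e-17), with every IP library of Eng, 3.97 to 5.12 CPM, below every input library, 5.74 to 7.79 CPM. Pecam1, Esam, Egfl7 and Vwf had log2 fold changes of 0.10 ± 0.20, 0.13 ± 0.23, -0.080 ± 0.14 and -0.024 ± 0.07 and were not called.

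The VEGF receptors differed in direction. Kdr ranged from 3.29 to 5.57 CPM in IP, with a median of 4.63, and from 1.97 to 3.61 CPM in input, with a median of 2.79, and it was 1.61-fold higher in IP (log2 fold change 0.69 ± 0.07, adjusted p = 7.303e-15). The overlap came from IP ethanol replicate 1, at 3.29 CPM, which lay below input control replicates 4 and 6, at 3.61 and 3.49 CPM. Within each treatment every IP library lay above every input library: control IP libraries began at 4.83 CPM, and ethanol input libraries ended at 2.66 CPM. Flt1 was lower in IP by 0.24 ± 0.05 on the log2 scale (adjusted p = 3.425e-05), with medians of 5.83 CPM in IP and 6.86 CPM in input. Tek was lower by 0.43 ± 0.17 (adjusted p = 0.0250), a call that was lost in the 12 libraries of dishes with both fractions, without the dish as a replicate block (adjusted p = 0.0892) or with it (adjusted p = 0.0926), and on leaving out any of 4 libraries, namely IP ethanol replicate 3, input control replicate 4 and input ethanol replicates 4 and 6 (adjusted p from 0.0530 to 0.0961).

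Slco1a4 was the member with the largest excess in IP. It had 58.0, 70.2 and 75.1 CPM in IP (lowest, median and highest) and 38.7, 40.9 and 43.5 CPM in input. All 12 IP libraries lay above all 6 input libraries, and the gene was 1.66-fold higher in IP (log2 fold change 0.73 ± 0.03, adjusted p = 7.316e-25), beside a median of 0.57 for the astrocyte list. Mfsd2a, a lipid transporter of the blood-brain barrier that is not a member, was higher by 0.83 ± 0.03 (adjusted p = 1.48e-34). Of the 26 other endothelial genes tested, 8 were higher and 8 were lower in IP, with a median log2 fold change of 0.0079, and the lowest values were those of the transcription factor gene Tal1 (-1.48), of Ctla2a (-1.45) and of Ly6a (-1.06).

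Among mural genes, the aminopeptidase gene Anpep and the vitronectin gene Vtn were about 4-fold lower in IP. Anpep ran from 1.24 to 1.85 CPM in IP and from 5.26 to 6.82 CPM in input, and it was 4.16-fold lower in IP (log2 fold change -2.06 ± 0.07, adjusted p = 1.245e-38). Vtn ran from 0.587 to 1.53 CPM in IP and from 3.46 to 4.50 CPM in input, and it was 4.02-fold lower (log2 fold change -2.01 ± 0.13, adjusted p = 4.436e-13). Neither gene's groups overlapped. Pdgfrb was lower by 0.54 ± 0.02 on the log2 scale (adjusted p = 8.934e-36), with 89.8 to 99.9 CPM in IP and 133.8 to 138.5 CPM in input, a difference many times the spread within either fraction. Rgs5, a regulator of G protein signalling of pericytes, was higher in IP by 0.30 ± 0.08 (adjusted p = 0.00151). The intermediate filament gene Des and the genes of the vascular ATP-sensitive potassium channel, Abcc9 and Kcnj8, were not called, with log2 fold changes of -0.094 ± 0.12, 0.063 ± 0.15 and -0.49 ± 0.94. Of 20 other mural genes, 7 were higher, among them Cspg4 (1.07), S1pr3 (0.61) and Mcam (0.47), and 7 were lower, among them Gja4 (-2.26), Foxf2 (-1.87) and Ifitm1 (-1.22).

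Meningeal matrix genes and transcription factors were divided. The proteoglycan gene Dcn had 5.21, 6.13 and 7.48 CPM in IP and 20.6, 23.0 and 25.0 CPM in input (lowest, median and highest). The fractions did not overlap, and Dcn was 3.66-fold lower in IP (log2 fold change -1.87 ± 0.05, adjusted p = 7.811e-22). Postn, which encodes the matrix protein periostin, was 2.20-fold lower in IP (log2 fold change -1.14 ± 0.07, adjusted p = 3.056e-21), with 2.44 to 4.00 CPM in IP and 4.88 to 8.75 CPM in input. Fn1 was lower by 0.20 ± 0.02 (adjusted p = 3.625e-14), with 1423 to 1653 CPM in IP and 1703 to 1842 CPM in input. Lum, a second proteoglycan, was lower by 1.55 ± 0.51 (adjusted p = 0.00820) on 30 IP pairs and 46 input pairs, and its call was lost with the dish as a replicate block (adjusted p = 0.0501) and without input control replicate 6 (adjusted p = 0.0870). The GABA transporter gene Slc6a13 was lower by 1.15 ± 0.29 (adjusted p = 0.000561).

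The mesenchymal transcription factors did not move as a set. Foxc1, a forkhead factor that the meninges need to form, was higher in IP in every library, with 24.9 to 28.3 CPM in IP and 19.8 to 21.5 CPM in input (log2 fold change 0.36 ± 0.03, adjusted p = 2.574e-17). Foxd1, also a forkhead factor, was lower, with 0.0674 to 0.259 CPM in IP and 0.262 to 0.469 CPM in input (log2 fold change -1.32 ± 0.23, adjusted p = 1.094e-06). Twist1 was lower by 0.49 ± 0.03 (adjusted p = 3.723e-22), with 29.1 to 33.6 CPM in IP and 41.9 to 47.2 CPM in input. Cdh11 was higher by 0.36 ± 0.02 (adjusted p = 1.376e-27), with 156.3 to 166.8 CPM in IP and 123.7 to 125.8 CPM in input. Ptgds and Fbln1 had log2 fold changes of 0.023 ± 0.06 and 0.079 ± 0.04 and were not called. Fbln1 (adjusted p = 0.0595) was called higher with no filter on low counts (adjusted p = 0.0412) and on leaving out IP control replicate 1 or 5 or input control replicate 4, 5 or 6 (adjusted p from 0.0294 to 0.0332). Dpt, at -1.62 ± 0.74, had an adjusted p of 0.0623 that was 0.00667 with own-strand counts. Of 31 other meningeal genes, 11 were higher and 12 were lower, and the extremes were Lamc3 (0.68), Sparc (0.50) and Fmod (0.49) among the higher and Mgp (-2.78), Pi16 (-2.32) and Aldh1a2 (-1.76) among the lower.

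**Figure D2:**
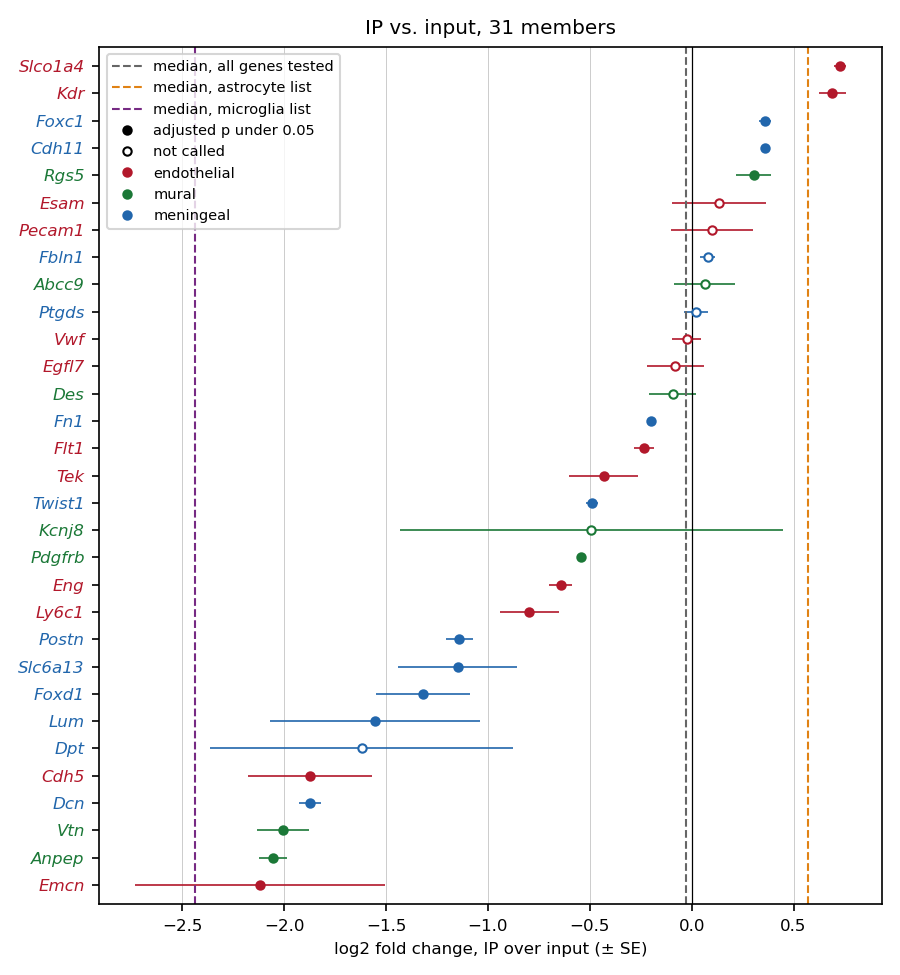
Log2 fold change of IP over input with its SE for the 31 tested members, ordered by value, with endothelial genes in red, mural genes in green and meningeal genes in blue, filled points for an adjusted p under 0.05 and open points for genes not called. Dashed lines mark the median of all genes tested (-0.028), of the astrocyte list (0.57) and of the microglial list (-2.44). Slco1a4 and Kdr lie right of the astrocyte median, and Emcn, Anpep and Vtn lie nearest to the microglial median.

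Against other cell types, no member reached the median of the microglial list, and the choroid plexus list had a median log2 fold change of -1.12, with 5 of 8 genes lower and none higher. Of 10 neuronal genes 5 were higher and 1 was lower, of 11 genes of the oligodendrocyte lineage 5 were higher and 4 were lower, and neither of the erythroid genes that could be tested was called. Genes that supply or receive vascular signals leaned lower, with 9 of 28 higher, 14 lower and a median of -0.11, and their extremes were the secreted ligand gene Wnt7a (0.75) and the receptor gene Acvrl1 (-1.19) among called genes. Members at more than a 3-fold deficit in IP were Cdh5, Emcn, Anpep, Vtn, Dcn and the uncalled Dpt. The summed level of the 13 microglial genes was 88.98 to 106 CPM in IP and 210.9 to 239.8 CPM in input, and the part of other cells in the level of each member was not tested.

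Ethanol was compared with control in each fraction separately. In IP, 2 members were higher with ethanol and 4 were lower, 25 tested members were not called, and over all genes 11.9% were higher and 9.48% were lower. In input, 2 members were higher and 2 were lower, beside 7.21% and 7.78% of all genes. The median log2 fold change (ethanol over control) of the 31 tested members was -0.022 in IP and -0.0051 in input, beside 0.0054 and -0.0009 over all genes. The groups did not overlap for 4 members in IP (Kdr, Slco1a4, Vwf and Fbln1; 2 lower and 2 higher), beside 9.96% of all genes (4.87% lower and 5.09% higher), and for 5 members in input (Kdr, Eng, Slco1a4, Vtn and Twist1), beside 27.1%. Changes among members were small, and all called ones were under 1.5-fold.

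Kdr fell in both fractions. In IP it had 4.83, 5.20 and 5.57 CPM in control dishes (lowest, median and highest) and 3.29, 3.96 and 4.44 CPM in ethanol dishes. All 6 ethanol dishes lay below all 6 control dishes, and Kdr was 1.32-fold lower (log2 fold change -0.40 ± 0.07, adjusted p = 4.71e-06). In input it had 3.61, 2.93 and 3.49 CPM in control replicates 4 to 6 and 2.43, 1.97 and 2.66 CPM in ethanol replicates 4 to 6. These groups did not overlap either, and Kdr was 1.43-fold lower (log2 fold change -0.51 ± 0.12, adjusted p = 0.000427). The gene lies on the minus strand at chr5:75932827-75978458 (GRCm38).

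Postn was also called lower in both fractions. In IP it had 3.18, 3.43 and 4.00 CPM in control dishes and 2.44, 2.69 and 3.37 CPM in ethanol dishes, groups that overlapped through ethanol replicate 1. It was 1.25-fold lower (log2 fold change -0.32 ± 0.08, adjusted p = 0.00230). In input it had 8.75, 6.57 and 8.01 CPM in control and 7.01, 5.93 and 4.88 CPM in ethanol, groups that overlapped because control replicate 5 lay below ethanol replicate 4. It was 1.31-fold lower (log2 fold change -0.39 ± 0.08, adjusted p = 4.787e-05), a call that was lost with edgeR's stricter filter on low counts, filterByExpr (adjusted p = 0.0516). The SE and adjusted p in input rest on a spread shared over genes and understate the spread of these dishes. Their means were 7.775 ± 1.11 CPM in control and 5.941 ± 1.066 CPM in ethanol (SD, n = 3 each). The gene lies at chr3:54361109-54391037 on the plus strand.

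Slco1a4 rose in both fractions. In IP it had 58.0, 60.7 and 69.2 CPM in control dishes and 71.3, 74.5 and 75.1 CPM in ethanol dishes, with no overlap. It was 1.19-fold higher (log2 fold change 0.25 ± 0.03, adjusted p = 3.877e-07). In input the values were 38.7, 39.8 and 38.8 CPM in control and 43.5, 42.1 and 43.2 CPM in ethanol, also without overlap, and the gene was 1.10-fold higher (log2 fold change 0.13 ± 0.04, adjusted p = 0.00329). It lies at chr6:141805440-141856199 on the minus strand. The fold change in IP rested on dishes of unequal level within the control group, where replicates 1 to 4 lay at 58.0 to 62.1 CPM and replicates 5 and 6 at 69.2 and 67.2 CPM.

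Kdr, Postn and Slco1a4 were the members called in the same direction in both fractions, and the 250 bases before the annotated start of each are printed here for that reason, from RefSeq on GRCm38.p6, 5′ to 3′ on the gene's strand. The windows are chr5:75978456-75978705 (minus), chr3:54360857-54361106 (plus, the start nearest to the gene model counted) and chr6:141856221-141856470 (minus). Capitals mark matches, on either strand, to GGAATG (bound by TEAD factors), CAGGAA (ETS factors), CANNTG (E-box), CAGAC (SMAD factors) or TGACTCA (AP-1).
Kdr: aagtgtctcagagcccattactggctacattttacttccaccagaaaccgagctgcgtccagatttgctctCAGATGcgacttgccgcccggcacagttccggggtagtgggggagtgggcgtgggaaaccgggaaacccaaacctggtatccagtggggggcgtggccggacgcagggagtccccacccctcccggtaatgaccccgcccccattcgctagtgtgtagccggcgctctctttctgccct
Postn: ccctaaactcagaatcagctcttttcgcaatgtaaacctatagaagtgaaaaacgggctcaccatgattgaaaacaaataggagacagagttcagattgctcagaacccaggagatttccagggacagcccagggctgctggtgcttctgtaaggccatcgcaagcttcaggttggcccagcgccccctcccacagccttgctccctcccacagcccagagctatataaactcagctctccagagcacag
Slco1a4: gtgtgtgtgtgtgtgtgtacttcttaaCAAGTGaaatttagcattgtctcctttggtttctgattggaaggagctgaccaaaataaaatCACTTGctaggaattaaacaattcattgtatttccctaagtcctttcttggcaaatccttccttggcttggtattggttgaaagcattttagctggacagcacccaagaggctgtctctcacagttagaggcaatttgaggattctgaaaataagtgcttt
Kdr held 1 E-box match, Slco1a4 held 2 and Postn held none in these 250 bases, and none of the 3 held a match to the other 4 motifs. A promoter window of 300 bases, 250 before and 50 after the start, was listed for 25 of the 34 members. Of these, 21 held an E-box match, beside 72.3% of 32851 windows, 15 held CAGAC, beside 49.6%, 9 held CAGGAA, beside 30.6%, 5 held GGAATG, beside 14.7%, and 1 held TGACTCA, beside 5.2%. A match is a run of letters and does not show that a factor binds there.

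Vwf, Fbln1 and Ptgds were called in IP alone. Vwf, the von Willebrand factor gene, had 3.32, 3.602 and 3.83 CPM in control and 2.50, 2.95 and 3.25 CPM in ethanol IP libraries, without overlap, and was 1.24-fold lower (log2 fold change -0.31 ± 0.08, adjusted p = 0.00189). In input its values were 3.001, 4.20 and 3.66 CPM in control and 2.67, 2.73 and 3.46 CPM in ethanol, with a log2 fold change of -0.30 ± 0.11 that just missed the threshold (adjusted p = 0.0504). It passed the threshold in input with own-strand counts (adjusted p = 0.0477) and with GC and length trends removed (adjusted p = 0.0382), and without input control replicate 4 (adjusted p = 0.00918) or input ethanol replicate 6 (adjusted p = 0.00894). Fbln1 had 14.5, 15.3 and 16.3 CPM in control and 17.7, 18.1 and 18.8 CPM in ethanol IP libraries, and was 1.19-fold higher (log2 fold change 0.25 ± 0.04, adjusted p = 7.632e-07). In input all 6 libraries of Fbln1 lay between 15.6 and 16.1 CPM, and its log2 fold change was 0.0039 ± 0.05 (95% interval -0.10 to 0.11, adjusted p = 0.987). Ptgds had 17.5, 19.3 and 20.8 CPM in control and 13.8, 15.9 and 19.5 CPM in ethanol IP libraries, with overlap, and was 1.18-fold lower (log2 fold change -0.24 ± 0.07, adjusted p = 0.0272), a call lost on leaving out any of 7 of the 12 libraries, namely IP control replicates 1, 2, 4 and 6 and IP ethanol replicates 3, 4 and 5 (adjusted p from 0.0513 to 0.0775).

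Eng was called in input alone. It had 5.86, 5.74 and 6.65 CPM in control and 6.74, 7.79 and 7.72 CPM in ethanol input libraries, without overlap, and was 1.22-fold higher (log2 fold change 0.28 ± 0.08, adjusted p = 0.00582). The call was lost without input control replicate 5 (adjusted p = 0.0664) or input ethanol replicate 5 (adjusted p = 0.0549). In IP its log2 fold change was 0.083 ± 0.07 (95% interval -0.049 to 0.22, adjusted p = 0.45).

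**Figure D3:**
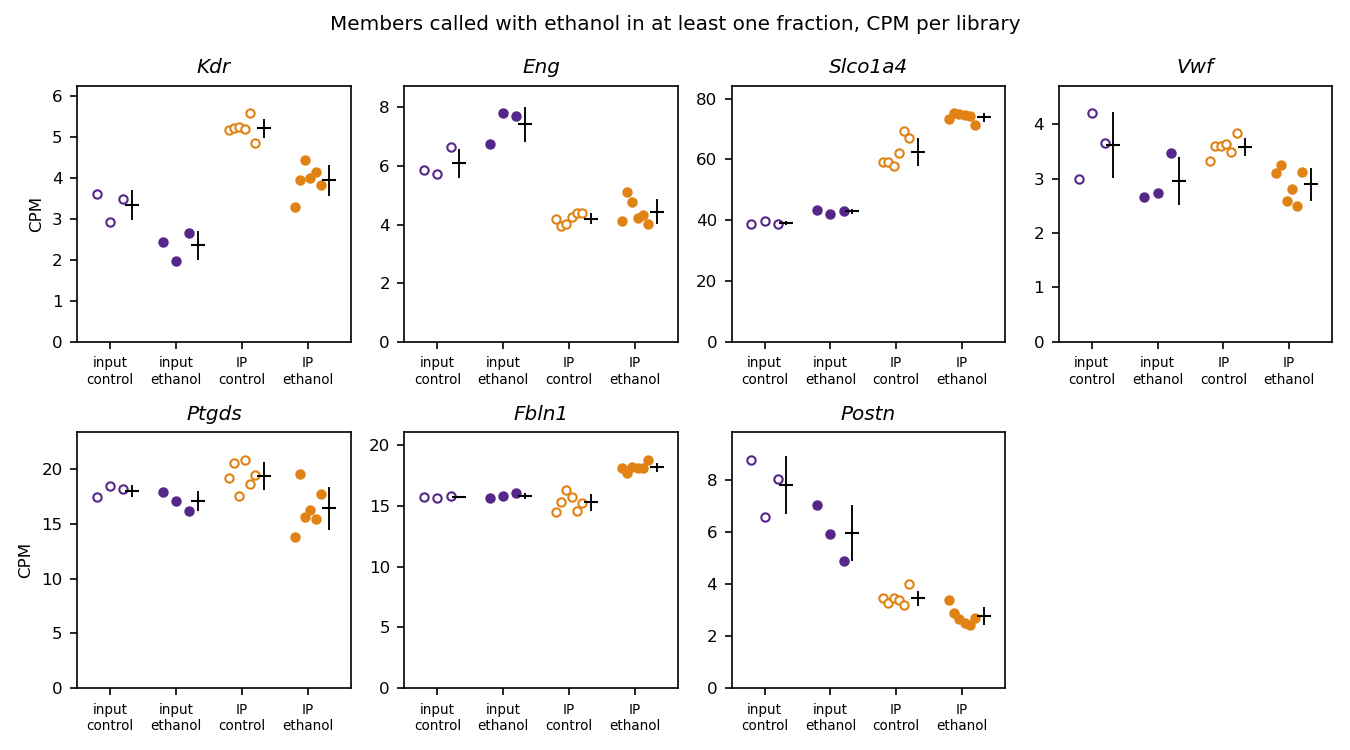
CPM in each library of the 7 members called with ethanol in at least 1 fraction, with open points for control, filled points for ethanol, purple for input (n = 3 a group) and orange for IP (n = 6 a group), and the mean ± SD beside each group. The means of Kdr and Postn are lower and that of Slco1a4 is higher in ethanol dishes of both fractions, and Fbln1 is level in input.

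None of the 7 mural members was called with ethanol in either fraction, beside 21.4% of all genes tested in IP and 15% in input. With 7 genes, this count does not set the list apart from all genes. Pdgfrb had log2 fold changes of -0.022 ± 0.03 in IP (95% interval -0.075 to 0.03) and -0.022 ± 0.02 in input (-0.07 to 0.026). Abcc9 ranged from 0.351 to 0.665 CPM in control and from 0.547 to 0.836 CPM in ethanol IP libraries, and its log2 fold change of 0.46 ± 0.18 missed the threshold (adjusted p = 0.0502), passing it with DESeq2 (adjusted p = 0.0455) and filterByExpr (adjusted p = 0.0472) and without IP control replicate 2, IP ethanol replicate 3 or IP ethanol replicate 4, with a lowest adjusted p of 0.0201 on leaving out 1 library. Egfl7, a secreted endothelial protein, was not called in IP (0.35 ± 0.16 on the log2 scale, adjusted p = 0.128), but was called when ethanol replicate 1 was left out (adjusted p = 0.0426) and in replicates 4 to 6 alone (adjusted p = 0.0351). Members of high level had small SEs: Fn1 had log2 fold changes of -0.0034 ± 0.02 in IP and -0.037 ± 0.02 in input, Cdh11 of 0.015 ± 0.02 and -0.0051 ± 0.02, and Foxc1 of -0.019 ± 0.04 and 0.065 ± 0.05. Removing GC and length trends brought Fn1 (-0.060, adjusted p = 0.0104) and Pdgfrb (-0.068, adjusted p = 0.0212) past the threshold in IP. For Fn1 that value lay outside the 95% interval without the removal (-0.051 to 0.044), so its small SE leaves out the choice of processing. Leaving out 1 library brought Twist1 past the threshold in IP (-0.099, adjusted p = 0.0359, without IP ethanol replicate 2) and Dcn in input (0.15, adjusted p = 0.0324, without input ethanol replicate 5). The rarest members, such as Emcn, Kcnj8 and Dpt, had SEs of 1.01 or more in IP, so a change of the size seen in Kdr was not detectable for them.

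Whether the effect of ethanol differed between IP and input was tested with an interaction term fitted to the 18 libraries. No member passed, and 0 of 24495 genes did, with 1459 genes and 2 members at an unadjusted p under 0.05 in edgeR, while DESeq2 called 3 genes higher and 1 lower, none of them a member. The 2 members were Fbln1, at 0.24 ± 0.07 (unadjusted p = 0.000479, adjusted p = 0.675), and Twist1, at -0.14 ± 0.06 (unadjusted p = 0.0129, adjusted p = 0.766). For members called in both fractions the difference (IP effect minus input effect) was 0.11 for Kdr (95% interval -0.15 to 0.37), 0.11 for Slco1a4 (0.002 to 0.22) and 0.059 for Postn (-0.21 to 0.33), and for Eng it was -0.21 (-0.42 to 0.0025). The intervals use a normal range and are slightly narrow for this test, in which Slco1a4 had an unadjusted p of 0.0514. A call in a single fraction, as for Vwf, Fbln1, Ptgds and Eng, is therefore not shown to differ between the fractions. With the dish as a replicate block in the 12 libraries of dishes with both fractions, 94 genes were called higher and 8 lower, and the adjusted p of Fbln1 was 0.051.

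**Figure D4:**
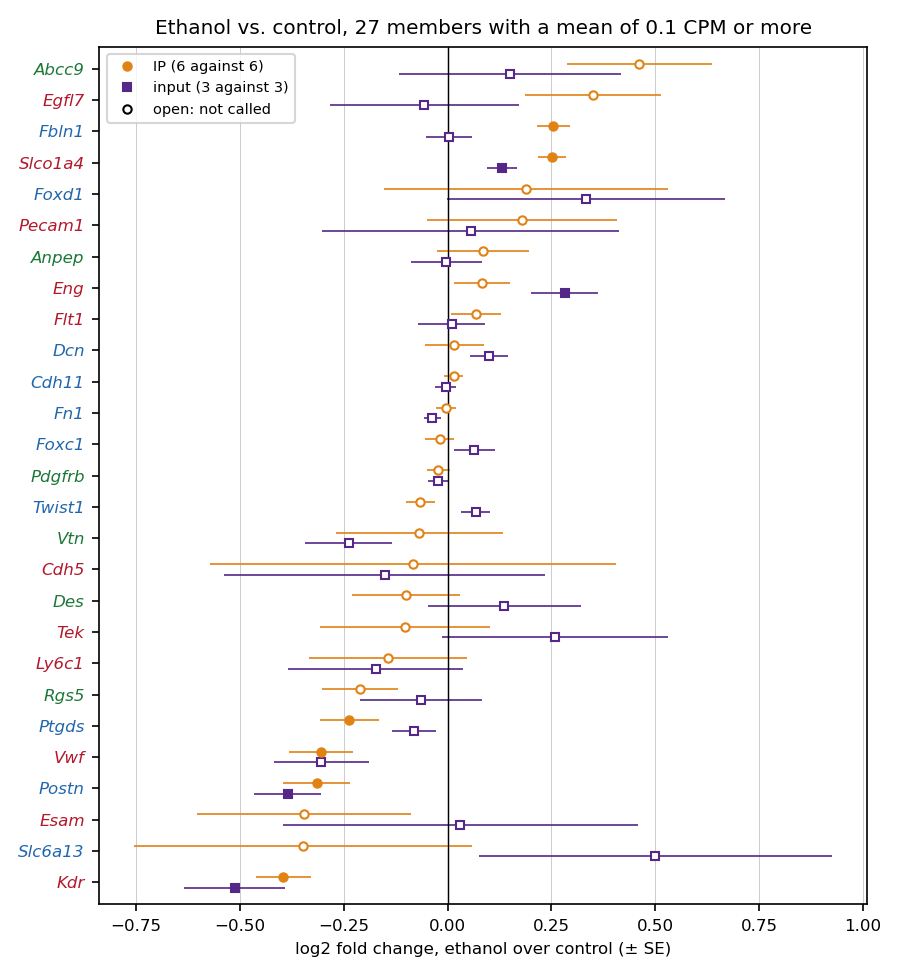
Log2 fold change of ethanol over control with its SE in IP (orange circles, 6 against 6 libraries) and in input (purple squares, 3 against 3) for the 27 members with a mean of 0.1 CPM or more, ordered by the value in IP, with filled symbols for an adjusted p under 0.05. Kdr and Postn are filled left of 0 in both fractions, Slco1a4 is filled right of 0 in both, and Fn1, Cdh11 and Pdgfrb lie close to 0.

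Among the genes that supply or receive vascular signals, 6 of 28 were higher and 2 were lower with ethanol in IP, and 4 were higher and 3 lower in input. Over all genes tested, 11.9% were higher and 9.48% lower in IP, and 7.21% and 7.78% in input. Apln, the apelin peptide of angiogenic vessels, was lower in both fractions (log2 fold change -0.39 ± 0.07 in IP and -0.36 ± 0.12 in input), as was Pdgfb, the ligand of the Pdgfrb receptor (-0.12 ± 0.03 and -0.10 ± 0.03). Nrp1, a VEGF co-receptor, was higher in both (0.17 ± 0.03 and 0.20 ± 0.03), and so was Tgfb1 (0.18 ± 0.03 and 0.13 ± 0.03). Ndp, the norrin ligand of the retinal and brain vasculature, was higher in IP by 0.34 ± 0.07 (adjusted p = 8.763e-05).

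The counts of the further lists stand beside 11.9% of all genes higher and 9.48% lower in IP, and 7.21% and 7.78% in input. Among genes with a mean of 1 CPM or more, the shares in IP were 20.8% and 16%. In the further endothelial list, 2 of 26 tested genes were higher and 2 were lower with ethanol in IP, and 4 were higher and 1 lower in input. Mfsd2a was lower in both fractions (-0.28 ± 0.04 and -0.30 ± 0.06), whereas the glucose transporter gene Slc2a1 (0.17 ± 0.03 and 0.14 ± 0.03) and Itm2a (0.16 ± 0.05 and 0.28 ± 0.07) were higher in both. In the further mural list, 4 of 20 genes were higher and none was lower in IP, with Cspg4, the NG2 proteoglycan also known from oligodendrocyte precursors, at 0.29 ± 0.04 in IP and 0.23 ± 0.06 in input. In the further meningeal list, 9 of 31 were higher and none was lower in IP, and 6 were higher and 2 lower in input. Pdgfra (0.47 ± 0.09 in IP and 0.56 ± 0.15 in input) and the homeobox gene Prrx1 (0.22 ± 0.02 and 0.22 ± 0.02) were higher in both, while the matrix Gla protein gene Mgp was lower in input (-0.35 ± 0.08). Pdgfra is also on the oligodendrocyte lineage list, so its rise is not particular to meningeal genes. Contractile genes, set aside from the members, were lower with ethanol in 11 of 12 cases in IP and in 10 of 12 in input, with medians of -0.41 in both fractions, and their part in the member results was not tested. Microglial genes were higher in 3 of 13 cases in IP and in 4 of 13 in input, with none lower, and their summed level was 88.98 to 93.1 CPM in control and 99.7 to 106 CPM in ethanol IP libraries.

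Set out over the 3 comparisons, 1 member, Slco1a4, was higher in IP and higher with ethanol in both fractions. Kdr was higher in IP and lower with ethanol in both fractions, and Postn was lower in all 3 comparisons. Eng was lower in IP and higher with ethanol in input. A further 14 members were lower in IP without an ethanol call, 3 (Cdh11, Foxc1 and Rgs5) were higher in IP without one, and 7 were called in none of the 3 comparisons, namely Abcc9, Des, Dpt, Egfl7, Esam, Kcnj8 and Pecam1.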

How the data were processed

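Libraries of 18 samples were trimmed by the authors with Trimmomatic, aligned to GRCm38/mm10 with STAR and handled with SAMtools, per the labels and the study's methods (versions not given in the sources used here). The deposited table holds the unstranded STAR counts of read pairs per Ensembl gene, whole and not normalized, equal to those in the single library files. The authors' own DESeq2 comparisons, also deposited, were not used. On average 5.498% of pairs were ambiguous between genes, 3.603% aligned to several places and 2.981% hit no gene, and these stayed out of library sizes. Positions and lengths came from GENCODE M21, and all 34 member symbols matched a gene.

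Counts were fitted with edgeR 4.0.16 (R 4.3.3): trimmed mean of M values scaling, genes with at least 10 pairs over all 18 libraries (24495 of 51912) and the quasi-likelihood test with Benjamini-Hochberg adjustment at 0.05. IP was compared with input over the 18 libraries with treatment as a covariate, ethanol with control within the libraries of each fraction, and the effects of ethanol in the fractions by an interaction over the 18 libraries. The fits over 18 libraries had no term for the dish, so the input and IP libraries of 1 dish counted as independent. In input, with 3 dishes a group, the p-values of members were close to those of a normal distribution. A gene's own spread between dishes thus hardly entered the input p-values. SE was the absolute log2 fold change divided by the square root of F, and intervals were the 95% range of a normal distribution with that SE, which can be slightly narrow for the F test. The script was tested on simulated data with changed genes of 1 CPM or more. Recovery was required only for fold changes larger than any ethanol call of a member, and not for the interaction. By the sample titles, an input library and the IP library of equal treatment and number came from 1 dish, and the paper states that input was taken from dishes used for IP. The correlations of their deviations from the group means lay between 0.034 and 0.206. Those of input and IP libraries of different dishes of 1 treatment lay between -0.177 and 0.134, so the ranges overlapped. The labels do not say whether a number shared by a control and an ethanol dish marks anything in common. All members were described, and of each other list at most the 3 highest and 3 lowest called genes of a comparison were named. The members and lists were chosen with earlier results of these data known. Alternatives were DESeq2 1.42.0, its size factors, total counts, filterByExpr, no filter, own-strand counts, spline trends of GC content and length removed, replicate blocks, replicates 4 to 6 only, and each library left out. Promoters came from RefSeq, GRCm38.p6.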

Additional observations from a re-analysis of the deposited data

Results flagged for a closer look

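In 4 of 62 sets of 6 IP libraries (a member gene in a treatment group, 6.45%), 1 library stood apart from the other 5 by Dixon's criterion, which chance flags in about 1 in 20 sets. Cdh5 was at 0.175 CPM in IP control replicate 6, on 13 read pairs, with the other control IP libraries between 0.0394 and 0.0724 CPM. Postn was at 4.00 CPM in the same library, with the others between 3.18 and 3.47 CPM. Esam, an adhesion molecule of endothelial junctions, was at 0.314 CPM in IP ethanol replicate 2, on 23 read pairs, with the others between 0.156 and 0.213 CPM. Twist1 was at 32.9 CPM in that library, with the others between 29.1 and 30.1 CPM.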

How the results depend on the processing

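Calls of the members rested on few read pairs for the rarest genes, where counting error set the precision, and the 3 members under the filter could not be tested. With counts that do not separate strands, paralogs and overlapping genes stay uncertain. For the 31 tested members, 770 log2 fold changes of the comparison of IP with input kept their direction and side of the threshold under an alternative, 12 gained a call, 10 lost one and 10 turned sign. For the 13 members called with ethanol under any setting, the corresponding numbers were 245, 11, 7 and 10 in IP and 170, 6, 3 and 2 in input. For the 7 members called with ethanol, 172 kept and 11 turned for the interaction. The causes of these changes were not tested.

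Members higher in IP numbered 5 to 6 and members lower 15 to 17 on leaving out 1 library, and 5 and 13 with the dish as a replicate block. The 12 libraries of dishes with both fractions gave no call for Tek or Emcn with or without that block, and the block itself ended the call of Lum and that of Dpt, which was called lower in those libraries without it. Signs turned only for members not called: with the 12 libraries of dishes in both fractions, Egfl7 was at 0.0806 and Abcc9 at -0.00349, with the dish as a replicate block at 0.0801 and -0.00708, and Ptgds was at -0.0282 with total counts. Leaving out 1 library gave ranges of -0.000137 to 0.0461 for Ptgds, -0.841 to 0.472 for Kcnj8 and -0.0790 to 0.0295 for Vwf.

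For ethanol in IP, replicates 4 to 6 alone gave 1824 genes higher in place of 2911 (3 against 3 libraries), with Eng at -0.0478, Fn1 at 0.0222, Pdgfrb at 0.00941 and Dcn at -0.0475. Dcn was at -0.00244 with GC and length trends removed. On leaving out 1 library Fn1 ranged from -0.0224 to 0.0142 and Dcn from -0.0304 to 0.0691. In input, filterByExpr left 1 member lower in place of 2, and leaving out 1 library left 1 to 2 members higher, with 1 without input control replicate 5. Without input ethanol replicate 5, Eng lost its call and Dcn gained one. Fbln1 ranged from -0.0115 to 0.0168 and Egfl7 from -0.235 to 0.0522.

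For the interaction, 3 genes higher and 1 lower were called with DESeq2, 94 and 8 with the dish as a replicate block, 26 and 11 with the dish block and GC and length trends removed, and 0 to 1 higher on leaving out 1 library, with 1 without IP ethanol replicate 3. Postn was at -0.0678 with the dish as a replicate block and at -0.0268 with the trends removed as well. It ranged from -0.0602 to 0.19 on leaving out 1 library, Vwf from -0.135 to 0.113 and Kdr from -0.0121 to 0.199.

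With the replicate number as a block between control and ethanol dishes, which the labels tie by number alone (correlations from -0.149 to 0.399), 3236 genes were higher and 2546 lower in IP, 1847 and 1982 in input. Members numbered 3 higher and 4 lower in IP, with Abcc9 added (adjusted p = 0.0318), and 2 higher and 3 lower in input, with Vwf added (adjusted p = 0.0488). In IP not every library correlated best with its own number.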
